A study of Mus musculus with 6 samples.

Results

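The genes described here encode secreted and membrane-anchored metalloproteases of the matrix metalloproteinase (MMP), ADAM and ADAMTS families, the related ADAMTS-like proteins, and the tissue inhibitors of metalloproteinases (TIMPs). They were taken by gene symbol from the deposited count table, and a mean of at least 20 raw counts over the 6 libraries was required. Of 18512 entries in the table, 66 carried such a symbol and 48 passed the minimum: 13 MMP, 15 ADAM, 13 ADAMTS, 4 ADAMTS-like and 3 TIMP genes. The gene just inside the minimum was Adam5, with a mean of 20.7 raw counts, and the gene just outside was Adamts14, with 19.7. RNA was sequenced from NMuMG cells, an epithelial line that comes from normal mouse mammary gland. The DMSO group received the vehicle only, the TGF-β group 5 ng/ml of TGF-β, and the TGF-β+2APB group the same TGF-β with 50 uM of 2APB, a compound that modulates store-operated calcium entry. Each group held 2 libraries, and all came from this untransfected line with no genetic change. The study's results give 24 h of treatment, its methods place 2APB before TGF-β, and the order could not be settled here. No library of cells given 2APB without TGF-β was analysed here, so each 2APB value is 2APB on top of TGF-β.

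MMPs cut collagens, gelatins, laminins and other matrix proteins, and are made as inactive proenzymes. The membrane-type MMPs sit at the cell surface, where they cut matrix directly and activate other MMPs. ADAMs are mostly sheddases, which release the outer part of membrane proteins such as growth factors, cadherins and Notch receptors. ADAMTS enzymes are secreted and bind matrix, and their substrates include versican, aggrecan and procollagens, while ADAMTS-like proteins have the same binding domains and no protease domain. TIMPs bind the active site of MMPs and of some of the ADAM and ADAMTS enzymes. In epithelial cells, TGF-β starts the epithelial-to-mesenchymal transition (EMT), in which matrix and its proteases are known to be remodelled.

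Part of the MMP family lies side by side on chromosome 9. In the GRCm38 annotation the cluster holds 9 of the 66 entries between bases 7272514 and 7699585, and 4 of them, Mmp13, Mmp12, Mmp10 and Mmp8, passed the count minimum. The sequence before the start of these 4 genes is shown because they are neighbours whose counts moved in different ways. The RefSeq promoter table (GRCm38.p6) matched 31 of the 48 genes with 33 windows of 250 bases before to 50 bases after the start. The 120 bases just before each start are printed 5′ to 3′ on the plus strand, which is the strand of all 4 genes. Capitals mark the AP-1 motif TGANTCA and the TATA motif TATAAA, each searched on both strands. For Mmp12 the window printed was chosen because it holds the AP-1 letters. Its other window, chr9:7344147-7344446, holds none. The regions are chr9:7272394-7272513 for Mmp13, chr9:7347254-7347373 for Mmp12, chr9:7502222-7502341 for Mmp10 and chr9:7558309-7558428 for Mmp8.
Mmp13: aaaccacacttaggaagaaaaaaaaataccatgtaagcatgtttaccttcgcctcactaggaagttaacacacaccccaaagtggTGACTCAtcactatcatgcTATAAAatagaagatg
Mmp12: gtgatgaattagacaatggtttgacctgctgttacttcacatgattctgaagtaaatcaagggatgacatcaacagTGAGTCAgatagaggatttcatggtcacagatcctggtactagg
Mmp10: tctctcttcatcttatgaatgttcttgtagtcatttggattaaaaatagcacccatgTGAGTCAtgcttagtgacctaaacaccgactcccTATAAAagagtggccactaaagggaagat
Mmp8: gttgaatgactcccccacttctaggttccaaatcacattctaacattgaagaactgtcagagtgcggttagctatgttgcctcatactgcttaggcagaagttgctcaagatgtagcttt

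The AP-1 letters stood in 3 of the 33 windows (9.09%) and in 7.81% of 32851 promoter windows of the whole table. The 3 were those of Mmp13 and Mmp10 and the printed window of Mmp12. The stretch printed for Mmp8 holds neither motif in full. TATA letters of its window begin at base -3 and run past the printed end, so they are not marked. The TATA letters were in 18.2% of the windows of these genes and in 13.6% of all. The E2-box CAGGTG, which Snail-family repressors bind, was in 18.2% of the windows and in 20.2% of all, and the PEA3 letters AGGAAG of Ets factors were in 30.3% and 35.4%. The CREB letters TGACGTCA were in none of the 33 windows and in 1.79% of all. No motif share is read as a difference, and a match of letters is not a bound site.

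Counts are given as normalized counts, which are deposited counts scaled to the mean library by TMM factors, in the order replicate 1 and replicate 2 of each group. Library totals ran from 71840570 to 79473182 counts, and the 48 genes took 0.204% to 0.237% of them. All 48 were among the 13353 genes tested. Changes are log2 fold changes with the standard error (SE) from 1 quasi-likelihood model in edgeR, and a gene was called higher or lower at a Benjamini-Hochberg false discovery rate (FDR) of 0.05 or less over all genes tested. The study's methods call the 2 replicates of a group biological without saying how they were separated, and the p-values measure the spread between these libraries.

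The libraries were checked against marker genes. Of the 10 epithelial markers, Krt8, Krt18 and Cdh1 had at least 35058 normalized counts in every library and Krt19 at least 1687, but Epcam had 50.6 to 163, Cldn7 at most 5.9 and Esrp1 at most 3.95, and Cldn3 was not analysed here. Endothelial markers summed to 9.83 to 53.3 counts per library and fibroblast markers to 78.5 to 295, of which Pdgfra made up 76.4 to 283. The 8 leukocyte markers tested, with Lyz2 the most abundant, summed to 5537 and 2518 under vehicle, 1447 and 521 under TGF-β, and 612 and 35818 under TGF-β+2APB. Each of the 8 was highest in replicate 2 of TGF-β+2APB, where they ranged from 606 to 28667 counts. Results for genes that stand apart in that library are therefore given with and without it. In bulk RNA, fewer cells of a type and less RNA per cell cannot be told apart.

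With TGF-β against DMSO, 17 of the 48 genes rose and 9 fell, which is 54.2% called, beside 41.5% of all genes tested. By direction, 21.8% of all genes rose and 19.7% fell. The largest rises were of Mmp9, Mmp10 and Adamts16, and of Adamts12 and Adamtsl2, which had no count in DMSO, and the largest fall was of Adamts15. With TGF-β+2APB against TGF-β, 5 genes rose and 11 fell, which is 33.3% called, beside 17.5% of all genes, 6.58% higher and 10.9% lower. The collagenase Mmp13, the gelatinase Mmp9 and the proteoglycanases Adamts1 and Adamts9 were among those that fell. With TGF-β+2APB against DMSO, 20 rose and 15 fell, which is 72.9% called, beside 52.8% of all genes, 25.6% higher and 27.2% lower. The libraries of the groups did not overlap in 40 of the 48 genes with TGF-β against DMSO, in 31 with TGF-β+2APB against TGF-β and in 43 with TGF-β+2APB against DMSO, beside 72.5%, 58% and 86% of all genes tested. The 3 comparisons share libraries, so their counts are not independent of each other. DMSO is not compared in TGF-β+2APB against TGF-β, but its libraries enter that test through the shared estimate of spread. Without either DMSO library, the log2 changes of Timp2 and Adamts7 in that comparison stayed at -0.55 and 0.70. The median log2 fold change of the 48 genes was 0.15, -0.12 and 0.10 in the 3 comparisons, and the median without the sign was 0.88, 0.47 and 1.68, beside 0.35, 0.23 and 0.44 over all genes. In 36 of the 48 genes at least 1 comparison was called. The matching share of all genes was not computed, and it cannot be below the 52.8% called in TGF-β+2APB against DMSO alone. The count between TGF-β+2APB and TGF-β fell from 16 to 7 without DMSO replicate 1, DMSO replicate 2 or TGF-β+2APB replicate 1, and 6 of the 16 calls held whichever of the 6 libraries was left out, those of Mmp13, Mmp9, Mmp15, Adam23, Adamts1 and Adamts9.

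**Figure D1:**
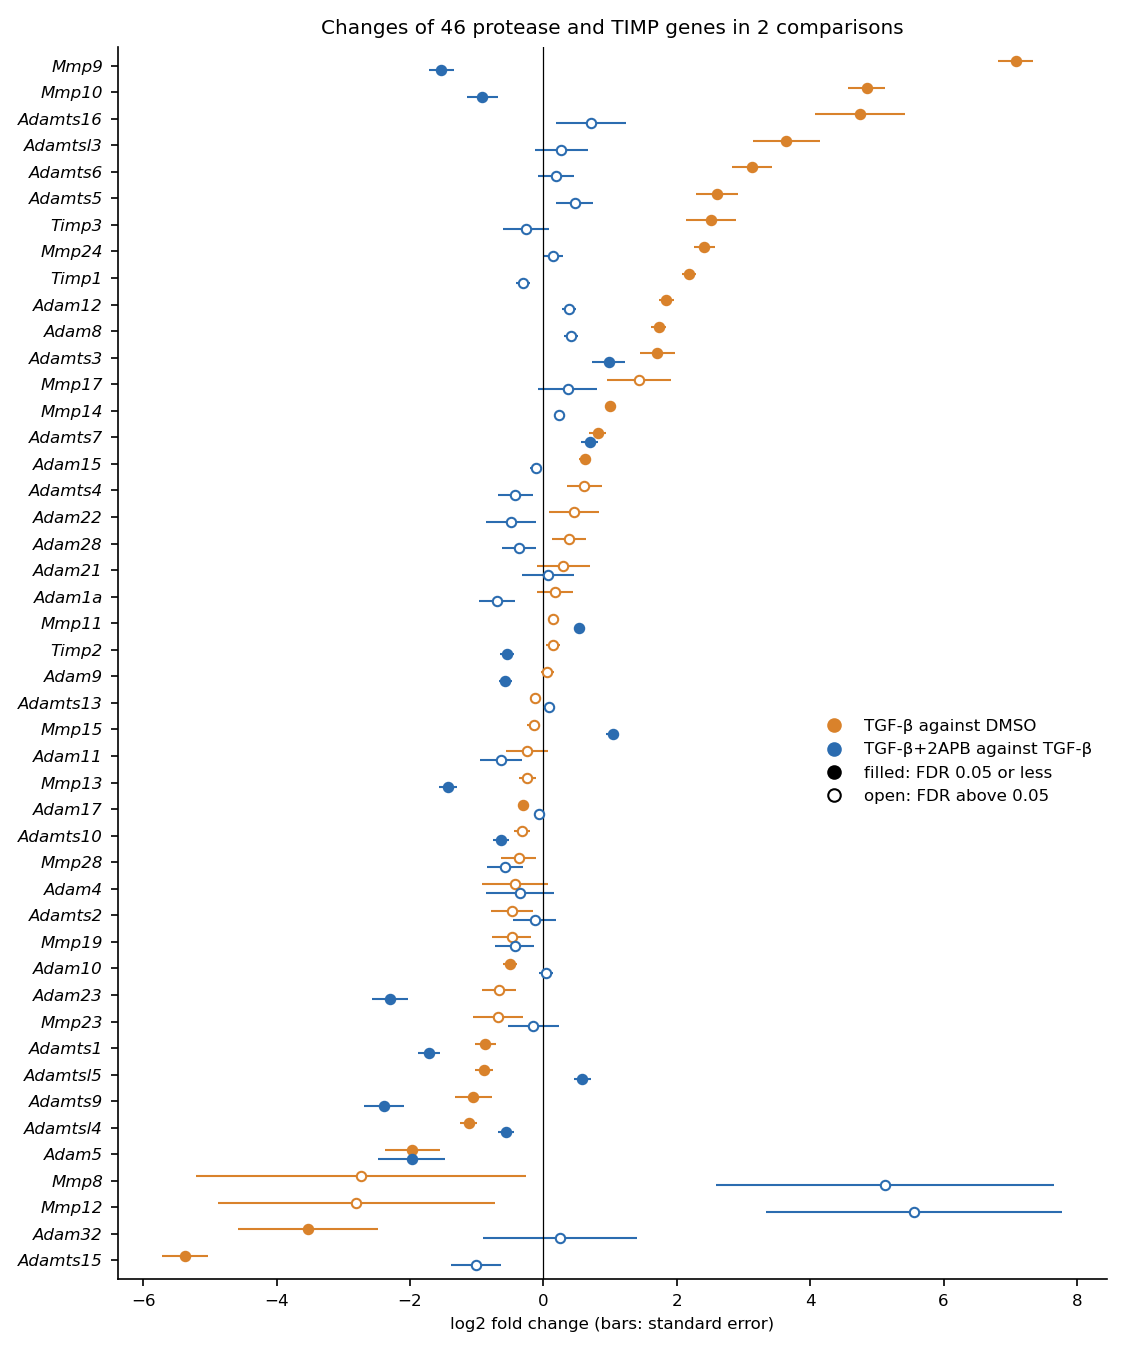
Log2 fold changes (x axis) of 46 protease and TIMP genes, with bars for the standard error, for TGF-β against DMSO (orange) and TGF-β+2APB against TGF-β (blue). Filled points have an edgeR FDR of 0.05 or less, and Adamts12 and Adamtsl2 are left out because DMSO held no count. Mmp9 lies at 7.08 and then -1.53, Adamts15 at -5.37, and the widest bars are those of Mmp8 and Mmp12.

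Among the secreted MMPs, gelatinase B and stromelysin-2 rose strongly with TGF-β and were lower again with 2APB, while the collagenase Mmp13 fell when 2APB was added. Mmp9 encodes gelatinase B, which cuts type IV collagen and denatured collagen. Its normalized counts were 27.5 and 20.7 in the DMSO libraries, 3300 and 3275 in the TGF-β libraries, and 1340 and 937 in the TGF-β+2APB libraries. The 3 groups did not overlap, and both TGF-β+2APB libraries lay between DMSO and TGF-β. Mmp9 rose 135-fold with TGF-β (log2 change 7.08, SE 0.26, FDR 5.2e-05 by edgeR) and was 2.89-fold lower with TGF-β+2APB than with TGF-β (log2 change -1.53, SE 0.19, FDR 0.0072 by edgeR), which left it 46.9-fold above DMSO (edgeR FDR 5.11e-05). Mmp10 encodes stromelysin-2, which cuts proteoglycans and laminin and activates other MMPs. It had 29.5 and 18.6 counts under vehicle, 705 and 689 under TGF-β, and 420 and 320 under TGF-β+2APB, again in 3 groups that did not overlap. The rise with TGF-β was 28.8-fold (log2 change 4.85, SE 0.28, FDR 0.00016 by edgeR), and TGF-β+2APB lay 1.89-fold below TGF-β (log2 change -0.91, SE 0.23, FDR 0.0462 by edgeR). This last call was lost whichever single library was left out, with edgeR FDR values of 0.0568 to 0.128, and 8.37% of the 50-base words of Mmp10 also occur in the neighbouring Mmp3, which had at most 2 raw counts in any library.

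Mmp13 encodes collagenase-3, which cleaves fibrillar collagen. It had 1403 and 1165 counts in the DMSO libraries, 1143 and 1025 in the TGF-β libraries, and 386 and 416 in the TGF-β+2APB libraries. The TGF-β+2APB libraries lay clearly below the others, and Mmp13 fell 2.70-fold against TGF-β (log2 change -1.43, SE 0.13, FDR 0.00421 by edgeR) and 3.20-fold against DMSO (edgeR FDR 0.000265). The difference between TGF-β and DMSO, log2 -0.24, did not pass the test (edgeR FDR 0.182). Mmp11, which encodes stromelysin-3, moved the other way: 3062 and 3078 counts under vehicle, 3524 and 3293 under TGF-β, and 5043 and 4810 under TGF-β+2APB. It rose 1.45-fold against TGF-β (log2 change 0.53, SE 0.07, FDR 0.009 by edgeR), a call lost without TGF-β+2APB replicate 1 (edgeR FDR 0.0892), and 1.6-fold against DMSO (edgeR FDR 0.000688). Mmp19 fell 1.88-fold and the epithelial MMP Mmp28 1.94-fold in TGF-β+2APB against DMSO (edgeR FDR 0.0463 and 0.0287). Both calls were lost without either DMSO library or without TGF-β+2APB replicate 1, with edgeR FDR values of 0.0931 to 0.168 for Mmp19 and 0.0789 to 0.145 for Mmp28. Mmp19 shares 24.7% of its 50-base words with the gene Tmem198b on the opposite strand, and Mmp28 10.5% with an overlapping gene, so part of their counts could be from those genes. Mmp23 did not pass the test in any comparison, with 19.5 to 43.4 counts per library.

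The 2 other members of the chromosome 9 cluster were set apart by 1 library, and were singled out after their values were seen. Mmp12, the macrophage metalloelastase, had 643 and 165 counts in the DMSO libraries, 91.6 and 22.8 in the TGF-β libraries, and 25.7 and 5420 in the TGF-β+2APB libraries. Mmp8, the neutrophil collagenase, had 59.0 and 8.26 counts under vehicle, 9.74 and 0 under TGF-β, and 0 and 353 under TGF-β+2APB. In both genes replicate 2 of TGF-β+2APB was the highest of all 6 libraries and replicate 1 of the same group was at or near the lowest. Neither gene passed the test in any comparison: against TGF-β the edgeR FDR was 0.146 for Mmp12 (log2 5.56, SE 2.22) and 0.221 for Mmp8 (log2 5.12, SE 2.53). Without replicate 2 the log2 fold change of Mmp12 against TGF-β was -1.17, of the opposite sign, and without replicate 1 it was 6.52 and passed the test (edgeR FDR 0.0227). Against DMSO the same pair of fits gave -3.94 and 3.74 for Mmp12. DESeq2 called Mmp12 higher with TGF-β+2APB than with TGF-β when fitted on all 6 libraries (FDR 0.0305), and Mmp8 fell under the count minimum without replicate 2. The leukocyte markers moved with these genes, from a sum of 612 in replicate 1 to 35818 in replicate 2, and Lyz2 from 156 to 28667. In DMSO and in TGF-β, replicate 1 had the higher value of Mmp12, Mmp8 and the marker sum. A link between the markers and these genes was not tested. The gelatinase Mmp2, below the count minimum, had 34 raw counts in that library and 0 to 4 in the other 5, and Mmp19 had 1186 normalized counts there and 634 in replicate 1. Without replicate 2, Mmp19 against TGF-β went from log2 -0.43 (edgeR FDR 0.361) to -0.96 and was called (edgeR FDR 0.0485), and against DMSO it went from -0.91 to -1.41. Mmp13, Mmp10 and Mmp9 did not stand apart in replicate 2, where they had 416, 320 and 937 counts beside 386, 420 and 1340 in replicate 1.

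**Figure D2:**
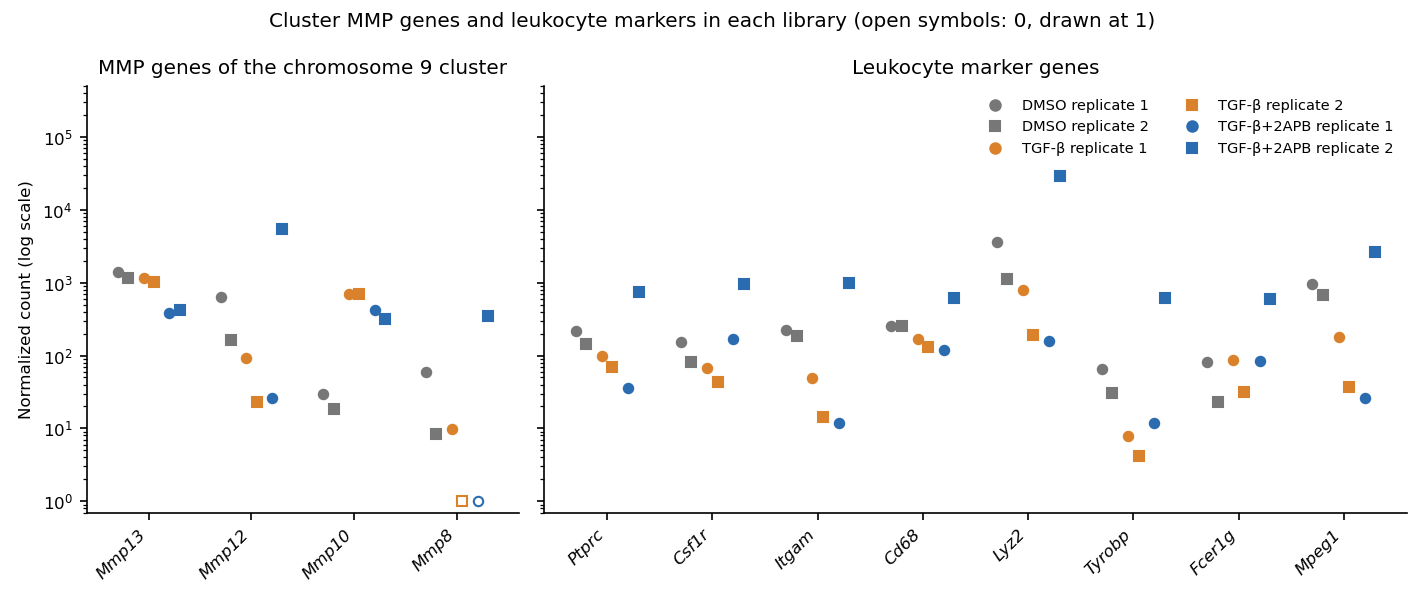
Normalized counts (y axis, log scale) of the 4 MMP genes of the chromosome 9 cluster that passed the count minimum (left) and of 8 leukocyte marker genes (right), 1 point per library. Open symbols are counts of 0. Mmp12, Mmp8 and all 8 markers are highest in replicate 2 of TGF-β+2APB (blue squares), and Mmp13 and Mmp10 are not.

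All 4 membrane-type MMPs that passed the count minimum were higher with TGF-β+2APB than in DMSO, and 2 of them were already higher with TGF-β. Of all genes tested, 25.6% were higher in the first of these comparisons and 21.8% in the second. Mmp14 encodes the main membrane-type collagenase, which also activates progelatinase A. Its counts were 9432 and 8710 in the DMSO libraries, 18901 and 17458 in the TGF-β libraries, and 21992 and 20969 in the TGF-β+2APB libraries, in rising groups that did not overlap. Mmp14 rose 2.0-fold with TGF-β (log2 change 1.0, SE 0.08, FDR 0.000473 by edgeR) and 2.37-fold with TGF-β+2APB (log2 change 1.24, SE 0.08, FDR 0.000145 by edgeR). The step from TGF-β to TGF-β+2APB, log2 0.24 with SE 0.08, did not pass the test (edgeR FDR 0.099), though DESeq2 (FDR 0.0146) and the fit without TGF-β replicate 1 (edgeR FDR 0.0366) called it. Mmp24 is better known from the nervous system, and its counts were 98.3 and 82.6 under vehicle, 481 and 486 under TGF-β, and 564 and 501 under TGF-β+2APB. It rose 5.34-fold with TGF-β (log2 change 2.42, SE 0.16, FDR 0.000256 by edgeR) and stood 5.88-fold above DMSO with TGF-β+2APB (edgeR FDR 0.000126). It shares 12.7% of its 50-base words with a gene on the opposite strand.

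Mmp15 followed another course. Its counts were 2213 and 2083 in the DMSO libraries, 2065 and 1820 in the TGF-β libraries, and 4209 and 3770 in the TGF-β+2APB libraries. Only the libraries with 2APB were raised, 2.05-fold against TGF-β (log2 change 1.04, SE 0.10, FDR 0.00462 by edgeR) and 1.86-fold against DMSO (edgeR FDR 0.000883), and the difference between TGF-β and DMSO was log2 -0.15 (edgeR FDR 0.292). Mmp17, which is held in the membrane by a lipid anchor, was rare: 13.8 and 8.26 counts under vehicle, 37.0 and 22.8 under TGF-β, and 45.5 and 31.6 under TGF-β+2APB. Its 3.47-fold rise with TGF-β+2APB against DMSO was called (log2 change 1.79, SE 0.47, FDR 0.0227 by edgeR), but not without either DMSO library or TGF-β+2APB replicate 1 (edgeR FDR 0.0617 to 0.136).

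Of the 9 ADAM genes whose products carry the protease motif, 3 rose and 2 fell with TGF-β (55.6% called, beside 41.5% of all genes). The abundant sheddase genes Adam10, Adam9 and Adam17 differed by at most 1.48-fold in any comparison, and Adam12 and Adam8 rose more than 3-fold. Adam10 encodes the sheddase of Notch receptors and cadherins. It had 28681 and 29236 counts in the DMSO libraries, 18754 and 22090 in the TGF-β libraries, and 22308 and 19617 in the TGF-β+2APB libraries. Both treated groups lay below DMSO and overlapped each other. Adam10 fell 1.42-fold with TGF-β (log2 change -0.50, SE 0.11, FDR 0.0139 by edgeR) and 1.38-fold with TGF-β+2APB (log2 change -0.47, SE 0.11, FDR 0.0141 by edgeR). Without either DMSO library these calls were lost (edgeR FDR 0.0832 and 0.092 for TGF-β), and the TGF-β+2APB call also without TGF-β+2APB replicate 2 (edgeR FDR 0.0938). Adam17 encodes the sheddase of TNF and of several EGF-receptor ligands. It ranged from 3847 to 5134 counts, with the 2 DMSO libraries the highest, and was 1.23-fold and 1.29-fold lower in the treated groups (edgeR FDR 0.0193 and 0.00672). The TGF-β call was lost without either DMSO or either TGF-β+2APB library (edgeR FDR 0.0732 to 0.169), and the TGF-β+2APB call without DMSO replicate 1 or either TGF-β+2APB library (edgeR FDR 0.0564 to 0.0763).

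Adam12, a sheddase and adhesion protein known to be induced by TGF-β, had 3326 and 3477 counts under vehicle, 12036 and 12389 under TGF-β, and 17365 and 14387 under TGF-β+2APB. It rose 3.59-fold with TGF-β (log2 change 1.84, SE 0.11, FDR 0.000169 by edgeR) and 4.67-fold with TGF-β+2APB (edgeR FDR 6.39e-05). Its further difference between these groups, log2 0.38, missed the threshold (edgeR FDR 0.062), and DESeq2 called it at an FDR of 0.00907. Adam8, best known from leukocytes, had 236 and 254 counts in the DMSO libraries, 818 and 809 in the TGF-β libraries, and 1020 and 1146 in the TGF-β+2APB libraries. Unlike the leukocyte markers, Adam8 differed little between the 2 TGF-β+2APB libraries, and it was higher in both than in any DMSO library. The rise was 3.32-fold with TGF-β (log2 change 1.73, SE 0.11, FDR 0.00024 by edgeR) and 4.42-fold with TGF-β+2APB (edgeR FDR 7.46e-05). Adam15 was 1.54-fold higher with TGF-β (edgeR FDR 0.00385) and 1.43-fold higher with TGF-β+2APB (edgeR FDR 0.00564, and 0.0549 without DMSO replicate 2), and 15.4% of its 50-base words also occur in another gene. Adam9 encodes another abundant sheddase, with 16994 and 17543 counts under vehicle, 16774 and 19210 under TGF-β, and 11392 and 12854 under TGF-β+2APB. Only the TGF-β+2APB libraries were low, 1.48-fold below TGF-β (log2 change -0.57, SE 0.10, FDR 0.018 by edgeR) and 1.42-fold below DMSO (edgeR FDR 0.00764). The first of these calls was lost without either DMSO library or TGF-β+2APB replicate 1 (edgeR FDR 0.0659 to 0.0898), and the other without DMSO replicate 2 or TGF-β+2APB replicate 1 (edgeR FDR 0.0622 and 0.0515). Adam1a, Adam21 and Adam28 were between 20.7 and 118 counts in every library and did not pass the test in any comparison. Of the 50-base words of Adam1a, 77.8% also occur in Gm42878, an overlapping gene on the same strand, so its counts may not measure Adam1a alone.

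The 6 ADAM genes whose products lack protease activity were all rare, at most 194 counts in any library. No rise was called among them, but Adam5 and Adam32 passed the count minimum only through their DMSO counts. For these genes the minimum itself favoured falls from DMSO, so no common direction is read from the group. Adam23, which encodes an adhesion protein that binds integrins, had 163 and 194 counts in the DMSO libraries, 117 and 108 in the TGF-β libraries, and 19.8 and 25.6 in the TGF-β+2APB libraries. It fell 4.93-fold when 2APB was added to TGF-β (log2 change -2.30, SE 0.28, FDR 0.00706 by edgeR) and stood 7.82-fold below DMSO (edgeR FDR 0.000486), while the difference of TGF-β from DMSO was log2 -0.67 (edgeR FDR 0.0842). Adam5 and Adam32 are known from the testis and lie side by side on chromosome 8, 11770 bases apart, with Adam9 only 806 bases beyond Adam32. Adam5 had 47.2 and 47.5 counts under vehicle, 13.6 and 10.4 under TGF-β, and 3.96 and 1.97 under TGF-β+2APB. Adam32 had 57.0 and 59.9 counts in the DMSO libraries, 9.74 and 0 in the TGF-β libraries, and 3.96 and 7.89 in the TGF-β+2APB libraries. In both genes each treated library was below each DMSO library. Adam5 fell 3.91-fold with TGF-β (log2 change -1.97, SE 0.41, FDR 0.0127 by edgeR) and was 15.4-fold below DMSO with TGF-β+2APB (edgeR FDR 0.00124). Its further fall from TGF-β to TGF-β+2APB (log2 change -1.97, SE 0.50, FDR 0.0489 by edgeR) was lost without TGF-β replicate 1 or either TGF-β+2APB library (edgeR FDR 0.0888 to 0.219). Adam32 fell with TGF-β (log2 change -3.53, SE 1.04, FDR 0.0412 by edgeR) and was lower with TGF-β+2APB than in DMSO (log2 change -3.27, SE 1.02, FDR 0.0395 by edgeR, and 0.0855 without TGF-β+2APB replicate 1). The log2 change of Adam32 with TGF-β was -8.86 without TGF-β replicate 1 and -2.57 without TGF-β replicate 2, the library with no count, and the call was lost with no filter on the mean count (edgeR FDR 0.0659). Without a DMSO library, Adam5 and Adam32 fell under the count minimum and were not tested. Adam11, Adam22 and Adam4 did not pass the test in any comparison, and 17.4% of the 50-base words of Adam4 also occur in Gm4787.

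**Figure D3:**
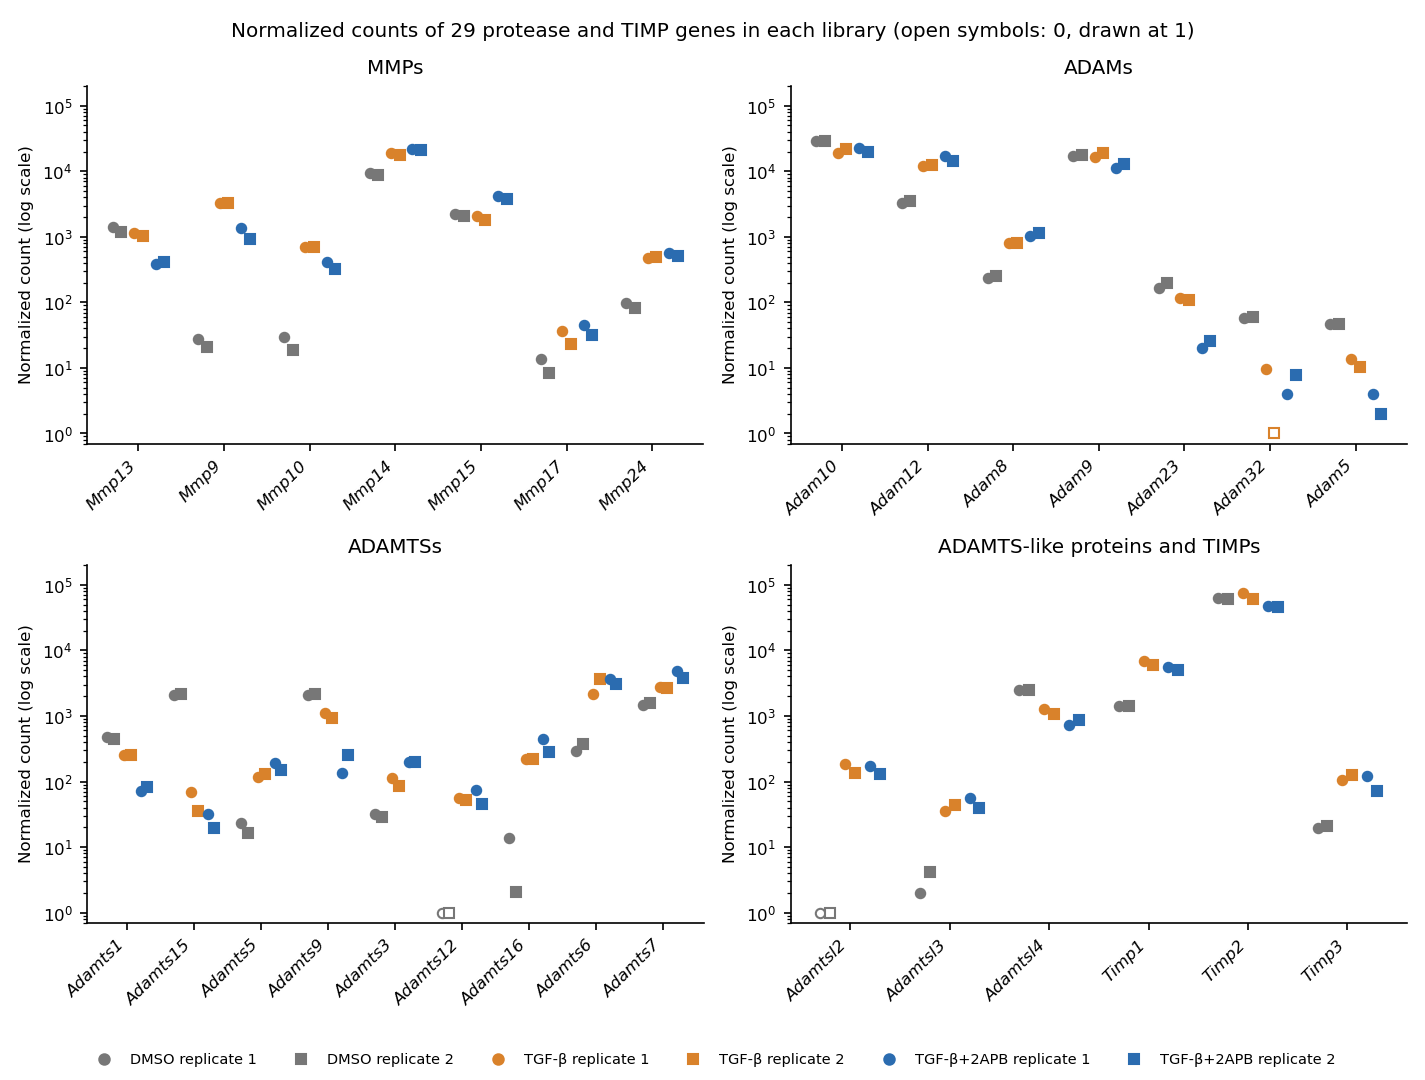
Normalized counts (y axis, log scale) in each of the 6 libraries for the 29 genes chosen as TIMPs or by change or level, as MMPs, ADAMs, ADAMTSs, and ADAMTS-like proteins with TIMPs. Circles are replicate 1, squares are replicate 2, and open symbols are counts of 0. Mmp9 goes from 27.5 and 20.7 in DMSO to 3300 and 3275 with TGF-β, and Adamts15 from 2105 and 2200 to 68.2 and 35.3.

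The 13 ADAMTS genes moved in both directions, 6 higher and 3 lower with TGF-β (69.2% called, beside 41.5% of all genes tested). Of the 5 proteoglycanases, which cut versican and aggrecan, Adamts15, Adamts9 and Adamts1 fell with TGF-β and Adamts5 rose. Adamts15 had 2105 and 2200 counts under vehicle, 68.2 and 35.3 under TGF-β, and 31.7 and 19.7 under TGF-β+2APB. This was the largest fall among the 48 genes, 41.4-fold with TGF-β (log2 change -5.37, SE 0.34, FDR 0.000218 by edgeR) and 83.4-fold with TGF-β+2APB (log2 change -6.38, SE 0.37, FDR 9.27e-05 by edgeR). The difference between the treated groups, log2 -1.01 with SE 0.37, did not pass the test (edgeR FDR 0.123), though DESeq2 (FDR 0.0445) and the fit without TGF-β replicate 2 (edgeR FDR 0.013) called it. Adamts9 had 2101 and 2147 counts in the DMSO libraries, 1128 and 926 in the TGF-β libraries, and 135 and 256 in the TGF-β+2APB libraries. It fell at each step, 2.07-fold with TGF-β (log2 change -1.05, SE 0.28, FDR 0.0287 by edgeR) and a further 5.25-fold with 2APB (log2 change -2.39, SE 0.30, FDR 0.00774 by edgeR), and ended 10.9-fold below DMSO (edgeR FDR 0.000406). The fall with TGF-β was not called without either DMSO library or TGF-β replicate 2 (edgeR FDR 0.0701 to 0.124). Of its 50-base words, 10.5% also occur in an overlapping gene.

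Adamts1 showed the same order of groups at a lower level, with 476 and 450 counts under vehicle, 253 and 253 under TGF-β, and 71.3 and 82.9 under TGF-β+2APB. It fell 1.83-fold with TGF-β (log2 change -0.87, SE 0.16, FDR 0.00799 by edgeR), a further 3.28-fold with 2APB (log2 change -1.71, SE 0.17, FDR 0.00471 by edgeR) and 6.0-fold from DMSO to TGF-β+2APB (edgeR FDR 0.000147). Without DMSO replicate 1 or 2 the first of these calls was lost (edgeR FDR 0.0844 and 0.0641). Adamts5, whose product is a major aggrecanase, lies 53059 bases from Adamts1 on chromosome 16 and went the other way. It had 23.6 and 16.5 counts in the DMSO libraries, 117 and 129 in the TGF-β libraries, and 192 and 148 in the TGF-β+2APB libraries. Adamts5 rose 6.08-fold with TGF-β (log2 change 2.60, SE 0.31, FDR 0.00177 by edgeR) and 8.42-fold with TGF-β+2APB (log2 change 3.07, SE 0.31, FDR 0.000655 by edgeR). Adamts4 had 82.6 to 156 counts per library and did not pass the test in any comparison.

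Of the procollagen N-propeptidases, which trim the amino end of fibrillar procollagens, Adamts3 rose and Adamts2 did not pass the test. Adamts3 had 31.4 and 28.9 counts under vehicle, 113 and 85.1 under TGF-β, and 196 and 195 under TGF-β+2APB. It rose 3.27-fold with TGF-β (log2 change 1.71, SE 0.26, FDR 0.0044 by edgeR) and 6.46-fold with TGF-β+2APB (log2 change 2.69, SE 0.27, FDR 0.000604 by edgeR). The step between these groups was log2 0.98 (SE 0.25, edgeR FDR 0.0493), a call that was kept in the fit without TGF-β replicate 1 but lost without any other single library (edgeR FDR 0.0797 to 0.149). Adamts2 ranged from 67.1 to 136 counts. Adamts14, the third propeptidase, was just below the count minimum, with 2 to 40 raw counts.

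Of the 6 other ADAMTS genes, 4 rose with TGF-β and stayed high with 2APB, where 21.8% of all genes rose with TGF-β. Adamts6, which belongs to the enzymes tied to fibrillin microfibrils, had 295 and 372 counts in the DMSO libraries, 2154 and 3694 in the TGF-β libraries, and 3667 and 3025 in the TGF-β+2APB libraries. The treated groups overlapped, and Adamts6 was 8.77-fold (log2 change 3.13, SE 0.30, FDR 0.00083 by edgeR) and 10.04-fold (log2 change 3.33, SE 0.30, FDR 0.000414 by edgeR) above DMSO. Adamts16 had 13.8 and 2.07 counts under vehicle, 220 and 218 under TGF-β, and 441 and 280 under TGF-β+2APB, a rise of 27.0-fold (log2 change 4.75, SE 0.67, FDR 0.00328 by edgeR) and 44.5-fold (log2 change 5.47, SE 0.69, FDR 0.00137 by edgeR). Its log2 rise with TGF-β ranged from 3.98 to 6.64 over the fits without 1 library, since the DMSO libraries held few counts. Adamts12, which like Adamts7 acts on cartilage oligomeric matrix protein, had no count in the DMSO libraries, 56.5 and 51.9 in the TGF-β libraries, and 73.3 and 45.4 in the TGF-β+2APB libraries. Against 6 deposited counts per DMSO library, it was at least 8.96-fold higher with TGF-β (edgeR FDR 0.0015) and at least 9.81-fold higher with TGF-β+2APB (edgeR FDR 0.000882). These bounds cover counting error only.

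Adamts7 rose at both steps: 1490 and 1572 counts under vehicle, 2743 and 2638 under TGF-β, and 4912 and 3810 under TGF-β+2APB. The rise was 1.76-fold with TGF-β (log2 change 0.81, SE 0.13, FDR 0.00498 by edgeR) and a further 1.62-fold with 2APB (log2 change 0.70, SE 0.13, FDR 0.0202 by edgeR), and this further rise was not called without either DMSO library or TGF-β+2APB replicate 1 (edgeR FDR 0.0647 to 0.0953). Adamts10, another enzyme of fibrillin microfibrils, had 1105 and 1043 counts in the DMSO libraries, 828 and 886 in the TGF-β libraries, and 501 and 602 in the TGF-β+2APB libraries. It fell 1.55-fold from TGF-β to TGF-β+2APB (edgeR FDR 0.0228, and 0.0759 to 0.105 without either DMSO library or TGF-β+2APB replicate 1) and 1.95-fold from DMSO (edgeR FDR 0.00151). Adamts13, which cleaves von Willebrand factor, was at 2198 to 2576 counts in all 6 libraries and did not pass the test in any comparison.

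All 4 ADAMTS-like genes were called with TGF-β, beside 41.5% of all genes tested, a rare pair higher and an abundant pair lower. Adamtsl2, whose product binds fibrillin and is tied to the storage of latent TGF-β, had no count under vehicle, 185 and 135 under TGF-β, and 172 and 132 under TGF-β+2APB. By the same floor it was at least 26.5-fold higher with TGF-β (edgeR FDR 0.000523) and at least 25.2-fold higher with TGF-β+2APB (edgeR FDR 0.00032), with the treated groups overlapping. Adamtsl3 had 1.97 and 4.13 counts in the DMSO libraries, 35.1 and 43.6 in the TGF-β libraries, and 55.4 and 39.5 in the TGF-β+2APB libraries, a rise of 12.5-fold (log2 change 3.64, SE 0.50, FDR 0.00294 by edgeR) and 15.1-fold (log2 change 3.91, SE 0.50, FDR 0.00147 by edgeR). The rise rests on 2 and 4 deposited counts in the DMSO libraries. Adamtsl4, another fibrillin-binding gene, had 2530 and 2531 counts under vehicle, 1260 and 1067 under TGF-β, and 725 and 854 under TGF-β+2APB. It fell 2.17-fold with TGF-β (log2 change -1.12, SE 0.12, FDR 0.00137 by edgeR) and 3.21-fold with TGF-β+2APB (log2 change -1.68, SE 0.13, FDR 0.000219 by edgeR). The step between them, log2 -0.56 (edgeR FDR 0.034), was lost without either DMSO or either TGF-β+2APB library (edgeR FDR 0.0698 to 0.181). Adamtsl5 was the 1 gene among the 48 that fell with TGF-β and then rose with 2APB. It had 886 and 954 counts in the DMSO libraries, 477 and 519 in the TGF-β libraries, and 675 and 819 in the TGF-β+2APB libraries. The fall was 1.85-fold (log2 change -0.89, SE 0.13, FDR 0.00393 by edgeR) and the rise 1.5-fold (log2 change 0.58, SE 0.13, FDR 0.0357 by edgeR), and the rise held without TGF-β replicate 2 but was lost without any other library (edgeR FDR 0.0539 to 0.159).

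The 3 TIMPs differed in level and in response. Timp2 encodes the inhibitor that also helps Mmp14 to activate progelatinase A, and it had more normalized counts than any other of the 48 genes. It had 62529 and 60950 counts under vehicle, 75521 and 61512 under TGF-β, and 47116 and 46424 under TGF-β+2APB. DMSO and TGF-β overlapped (log2 change 0.15, SE 0.11, FDR 0.304 by edgeR), and the TGF-β+2APB libraries lay below both. Timp2 was 1.47-fold lower with TGF-β+2APB than with TGF-β (log2 change -0.55, SE 0.11, FDR 0.0224 by edgeR) and 1.32-fold lower than in DMSO (log2 change -0.40, SE 0.11, FDR 0.0224 by edgeR). Both calls were lost without either DMSO or either TGF-β+2APB library, with edgeR FDR values of 0.0742 to 0.12 against TGF-β and 0.0965 to 0.14 against DMSO. Timp1 encodes a soluble inhibitor that binds progelatinase B. Its counts were 1433 and 1434 in the DMSO libraries, 6997 and 6010 in the TGF-β libraries, and 5567 and 4966 in the TGF-β+2APB libraries. It rose 4.54-fold with TGF-β (log2 change 2.18, SE 0.11, FDR 0.000107 by edgeR) and 3.67-fold with TGF-β+2APB (log2 change 1.88, SE 0.11, FDR 8.93e-05 by edgeR). Timp1 was somewhat lower with TGF-β+2APB than with TGF-β, log2 -0.30 with SE 0.10, which did not pass the test (edgeR FDR 0.101), but was called without TGF-β replicate 2 (edgeR FDR 0.0141). Timp3 encodes the matrix-bound inhibitor of ADAM17 and the aggrecanases, and had 19.7 and 20.7 counts under vehicle, 105 and 127 under TGF-β, and 123 and 71.0 under TGF-β+2APB. It rose 5.72-fold with TGF-β (log2 change 2.52, SE 0.38, FDR 0.0039 by edgeR) and 4.78-fold with TGF-β+2APB (log2 change 2.26, SE 0.37, FDR 0.004 by edgeR). Timp3 overlaps Syn3 on the opposite strand, and 21.4% of its 50-base words also occur in Syn3. Timp4 had at most 2 raw counts in any library.

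To compare levels between genes, normalized counts were divided by transcript length and expressed per kb and per 1000000 counts of the library. In DMSO the highest levels on this scale were 217.8 ± 3.96 (SD, n = 2) for Timp2, 82.5 ± 1.12 for Adam10, 55.9 ± 1.26 for Adam9, 36.7 ± 2.06 for Mmp14, 21.2 ± 0.0141 for Timp1 and 17.6 ± 0.0636 for Mmp11. Neighbours in this order did not overlap. With TGF-β the order was Timp2 at 241.7 ± 34.9, Timp1 at 96.4 ± 10.4, Mmp14 at 73.5 ± 4.12, and Adam9 and Adam10, both at 58.2, whose replicates overlapped. With TGF-β+2APB it was Timp2 at 165.0 ± 1.70, Mmp14 at 86.8 ± 2.92, Timp1 at 78.0 ± 6.30 and Adam10 at 59.7 ± 5.42. Mmp9 moved from place 40 of 48 in DMSO to place 9 with TGF-β and place 16 with TGF-β+2APB. In DMSO 7 genes exceeded a level of 10 and 26 stayed under 1, so a few genes made up most of the sum.

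Summed by family on the per-length scale, the membrane-type MMPs were at 44.1 and 40.8 in the DMSO libraries, 83.2 and 76.7 in the TGF-β libraries, and 101 and 95.9 in the TGF-β+2APB libraries, and Mmp14 made up 86.3% to 92.0% of this sum. The secreted MMPs were at 35.4 and 31.7, 51.2 and 47.8, and 42.5 and 62.7, and without Mmp12 and Mmp8 at 42.4 and 41.2 in the TGF-β+2APB libraries. TIMPs summed to 242 and 236 under vehicle, 370 and 306 under TGF-β, and 249 and 238 under TGF-β+2APB, with Timp2 supplying 91.1% ± 0.156 (SD, n = 2), 71.4% ± 0.779 and 67.8% ± 1.56. In normalized counts not divided by length, the TIMP sum with TGF-β+2APB, 52805 and 51461, lay below the 63981 and 62404 of DMSO, and the log2 ratio of TGF-β to DMSO was 0.25 in place of 0.50. The ADAM sum, 153 to 177, overlapped between DMSO and TGF-β, and the ADAMTS sum was 25.1 to 31.3 in the 6 libraries although single genes changed strongly. ADAMTS-like genes were at 14.1 and 14.6 in DMSO and at 7.49 to 8.79 in the 4 treated libraries. The summed TIMP level over the summed MMP level was 3.04 and 3.26 in the DMSO libraries, 2.76 and 2.46 in the TGF-β libraries, and 1.73 and 1.5 in the TGF-β+2APB libraries. Without Mmp12 and Mmp8 these ratios were 3.15 and 3.29, 2.76 and 2.46, and 1.73 and 1.73, so the order of the groups was the same. Mmp12 and Mmp8 were singled out because they differed between the TGF-β+2APB libraries. The closer ratios of these libraries follow from that choice. No test was run on these sums, which are ratios of transcripts and not of protein or enzyme activity.

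**Figure D4:**
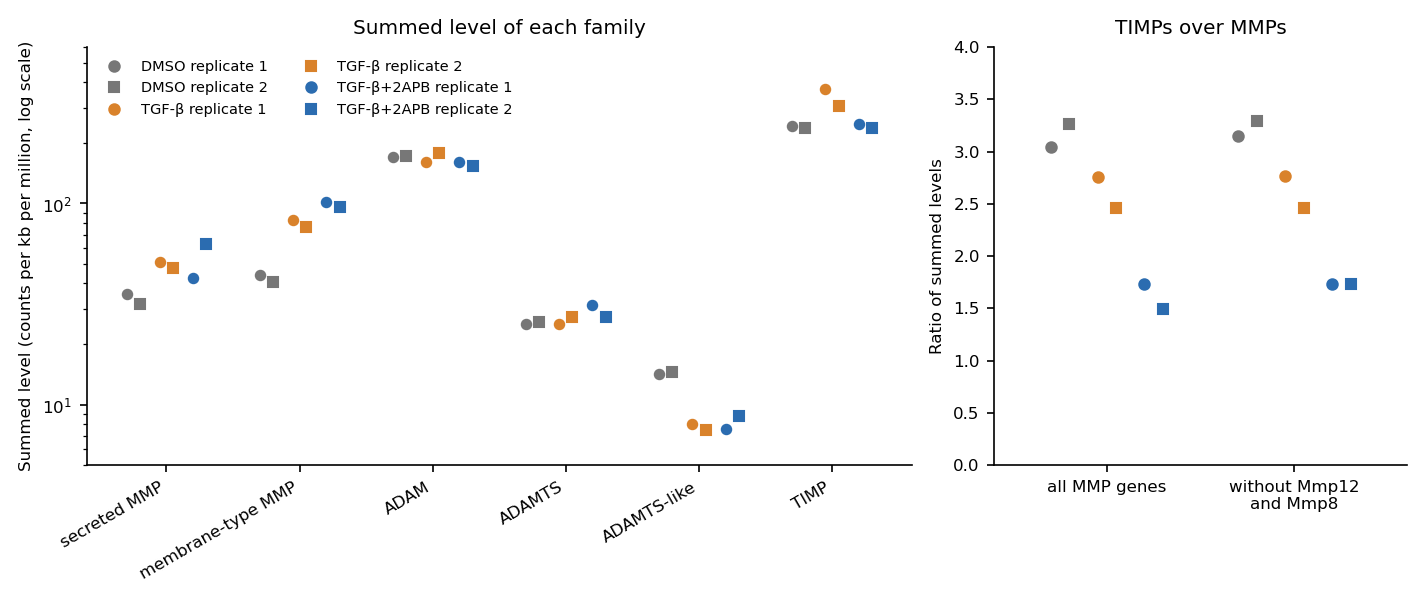
Summed per-length level of each family (left, counts per kb per 1000000, log scale) and the ratio of summed TIMP to summed MMP levels (right, linear scale from 0), 1 point per library. The ratio lies at 3.04 and 3.26 in DMSO and at 1.73 and 1.5 with TGF-β+2APB, and is also shown without Mmp12 and Mmp8.

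Other genes of the pathway were taken from lists chosen with earlier results of these data known. Their shares beside those of all genes are therefore descriptive and could reflect that choice. Of 28 activators and regulators of these proteases, 24 were tested. With TGF-β 5 rose and 6 fell (45.8%, near the 41.5% of all genes), with 2APB on top of TGF-β also 5 rose and 6 fell (45.8%, beside 17.5%), and with TGF-β+2APB against DMSO 7 rose and 11 fell (75%, beside 52.8%). The median log2 fold changes were -0.18, -0.20 and -0.29. Bmp1, the procollagen C-proteinase, rose from 6036 and 6111 counts in DMSO to 30654 and 28928 with TGF-β (log2 change 2.29, SE 0.07, FDR 3.91e-05 by edgeR), and its enhancer Pcolce2 from 11.8 and 10.3 to 2234 and 1969 (log2 change 7.55, SE 0.16, FDR 2.12e-05 by edgeR). The other enhancer, Pcolce, went the other way, from 2343 and 2223 counts to 1537 and 1266 with TGF-β (log2 change -0.70, SE 0.11, FDR 0.00512 by edgeR), and fell again to 855 and 894 with 2APB (log2 change -0.68, SE 0.11, FDR 0.0165 by edgeR). Plau, which encodes urokinase, rose by log2 2.41 with TGF-β (SE 0.17, edgeR FDR 0.000306) and was 3.17 above DMSO with TGF-β+2APB. Papln, which encodes an ADAMTS-like matrix protein, fell by 2.69 on the log2 scale with TGF-β (edgeR FDR 0.00644) and by 2.29 more with 2APB (edgeR FDR 0.0462).

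Of the 5 tetraspanin partners of ADAM10 that were tested, Tspan15 and Tspan33 fell, and Tspan5, Tspan14 and Tspan17 did not pass the test in any comparison. Of the 3 proprotein convertases tested, Pcsk7 did not pass it either. Tspan15, a tetraspanin that guides ADAM10 to its substrates, had 4497 and 4196 counts under vehicle, 2108 and 1801 under TGF-β, and 1194 and 1413 under TGF-β+2APB, and fell with TGF-β (log2 change -1.15, SE 0.12, FDR 0.00117 by edgeR). Tspan33, of the same group, had 713 and 705 counts, 343 and 299, and 89.1 and 138 in the 3 groups, and fell with 2APB against TGF-β (log2 change -1.5, SE 0.23, FDR 0.0133 by edgeR). Pcsk6, a convertase that activates proenzymes, was at 4283 and 4217, 3321 and 2252, and 570 and 850 counts, and its fall with 2APB was log2 -1.97 (SE 0.25, edgeR FDR 0.00825). Furin, the convertase that removes the propeptide of membrane-type MMPs and most ADAMs, is given although it was not among the 6 largest changes of its list. It had 18460 and 18218 counts in the DMSO libraries, 40970 and 36073 in the TGF-β libraries, and 50281 and 46651 in the TGF-β+2APB libraries, a rise of log2 1.07 with TGF-β (SE 0.09, edgeR FDR 0.000491). Lrp1, an endocytic receptor that clears proteases and their inhibitors, was at 22519 and 21503, 14983 and 12777, and 26779 and 29861 counts, and rose by log2 1.03 with 2APB against TGF-β (SE 0.11, edgeR FDR 0.00501).

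Of 29 substrates, from a list chosen in the same way, 22 were tested. With TGF-β 7 rose and 3 fell (45.5%, near the 41.5% of all genes), with 2APB on top of TGF-β 3 rose and 5 fell (36.4%, beside 17.5%), and with TGF-β+2APB against DMSO 12 rose and 6 fell (81.8%, beside 52.8%), with median log2 fold changes of 0.14, 0.05 and 0.41. Thbs1, which encodes thrombospondin-1, went from 3294 and 3190 counts in DMSO to 250290 and 249670 with TGF-β (log2 change 6.27, SE 0.12, FDR 2.12e-05 by edgeR), and Col1a1, a fibrillar collagen chain, from 51.1 and 74.4 to 1625 and 1724 (log2 change 4.74, SE 0.23, FDR 0.000103 by edgeR). Notch1, a target of ADAM10, fell by 1.84 on the log2 scale with TGF-β (SE 0.14, edgeR FDR 0.000364). Areg, a ligand shed by ADAM17, rose by log2 1.07 (SE 0.11, edgeR FDR 0.00103), and Cd44, a hyaluronan receptor that Mmp14 cuts, by 1.0 (SE 0.09, edgeR FDR 0.000802). When 2APB was added to TGF-β, Spp1, which encodes the matrix protein osteopontin, fell from 599437 and 625108 counts to 112362 and 154765 (log2 change -2.20, SE 0.15, FDR 0.00307 by edgeR). The EGF-receptor ligand Btc fell from 1145 and 1204 to 499 and 539 (log2 change -1.18, SE 0.09, FDR 0.00317 by edgeR).

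The 18 genes below the count minimum were not tested. Adamts14, Mmp27 and Mmp2 each reached 30 raw counts or more in at least 1 library, and Mmp7 had 14 and 18 raw counts in DMSO and at most 2 elsewhere. Mmp27, in the chromosome 9 cluster, had 34 and 26 raw counts under vehicle and at most 8 in any treated library. The other 14 had at most 20 raw counts in any library.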

How the data were processed

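RNA of NMuMG cells was selected with oligo-dT and sequenced, in 6 libraries of 3 groups with 2 replicates each. The authors aligned single-end reads with TopHat2 (2.0.13, after FastQC 0.11.2, per the submitters' processing notes) and deposited raw counts per gene, which they counted with featureCounts. The processing notes name the build mm10, the methods hg19, and all symbols are mouse. The strand setting is not given in the sources used here. Every deposited count was even, so lower bounds use a floor of 6 counts (3 units of 2) per library, which covers counting error only. Library totals ran from 71840570 to 79473182.

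edgeR 4.0.16 in R 4.3.3 was used for all main tests: TMM scaling, a filter at a mean normalized count of 20, 1 quasi-likelihood model of the 3 groups, F-tests of each pair and Benjamini-Hochberg FDR over 13353 genes. SE values are the size of the log2 change over the root of F. The biological coefficient of variation was 17.4%. Alternatives were DESeq2 1.42.0, other scalings and filters, halved counts, the replicate number as a block, 4-library fits, stricter thresholds and each library left out. A block with exchanged numbers was added after seeing the data. Positions, lengths and shared 50-base words came from GENCODE (GRCm38), promoters from RefSeq (GRCm38.p6). The length is that of the longest coding transcript. Python 3.11.15, pandas 2.3.3 and matplotlib 3.10.9 made tables and plots.

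The genes, role groups, pathway and marker lists were chosen with earlier results of these data known. Values in every library are given for the TIMPs, for called genes that changed by 1 or more on the log2 scale, and for the 3 highest levels in DMSO. Up to 6 genes per pathway list were named by size of change, some of which are not reported here. Other genes given with such values, among them Mmp8, Mmp12, Mmp11, Adamts10 and Adamtsl5, were added after their values were seen. In data simulated for TGF-β against DMSO on 13353 genes, 62 of 100 genes changed by log2 1 and 97 of 100 changed by log2 2 were called, with 5 of 13153 unchanged genes. The simulation changed 200 genes and drew every gene with the same spread, unlike these data. It therefore does not give how often real changes were found or missed here.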

Additional observations from a re-analysis of the deposited data

How the results depend on the processing

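Over the alternatives, 20 to 28 of the 48 genes were called between TGF-β and DMSO (26 as reported) and 25 to 36 between TGF-β+2APB and DMSO (35 as reported). Between TGF-β+2APB and TGF-β, where 16 were reported, 7 were called when only the 4 libraries compared were fitted, 7 at an FDR of 0.01 and 7 when a change of 1 or more on the log2 scale was also required, and DESeq2 called 20. With single libraries left out this count was 7 to 18: 7 without DMSO replicate 1, 7 without DMSO replicate 2, 7 without TGF-β+2APB replicate 1 and 11 without TGF-β+2APB replicate 2. Over all genes the same comparison gave 2334 calls, and 858, 834, 986 and 1260 without these 4 libraries. Leaving out single libraries gave 20 to 28 calls for TGF-β against DMSO and 26 to 36 for TGF-β+2APB against DMSO. Without either DMSO library, the falls with TGF-β went from 9 to 3, since Adam5 and Adam32 were no longer tested and Adam10, Adam17, Adamts1 and Adamts9 lost their calls. The falls with TGF-β+2APB against DMSO went from 15 to 8 without either DMSO library, and to 9 without TGF-β+2APB replicate 1. The cause was not tested. No called gene changed sign under any alternative.

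The replicate numbers were not taken to pair the libraries: across 13353 genes, which are not independent, the replicate differences correlated with a Pearson r of 0.136 (DMSO and TGF-β), -0.429 (DMSO and TGF-β+2APB) and -0.258 (TGF-β and TGF-β+2APB). With the replicate number as a block, 25, 11 and 33 genes were called in the order TGF-β against DMSO, TGF-β+2APB against TGF-β, and TGF-β+2APB against DMSO, and with the TGF-β+2APB numbers exchanged 26, 14 and 35. Over all genes the block gave 4737, 1342 and 6358 calls, beside 5548, 2334 and 7044.

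With 2 replicates per group, the 12 genes never called are not shown to be unchanged. Scaling moved the median of all genes by less than 0.1 on the log2 scale. Mmp17, Adam5, Adam32 and Adamtsl3, with means of 20.7 to 30 raw counts over the 6 libraries, rest on few reads.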

Other observations

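Some of the 48 protease and TIMP genes differed by more than 2-fold between the replicates of a group. In DMSO it was 3 of the 48, Mmp8, Adamts16 and Mmp12, beside 2.31% of all genes tested. With TGF-β it was 4, Adam32, Mmp8, Mmp12 and Adam4, beside 6.3%. With TGF-β+2APB it was 2, Mmp8 and Mmp12, beside 4.83%.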
